A study of Mus musculus with 15 samples.

Results

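Outer promoter peaks are regions of open chromatin that the authors' deposited annotation placed more than 1 kb and at most 3 kb from the start site of a gene. They were compared with inner promoter peaks, annotated within 1 kb of a start site. Of 41774 peaks in the 4 deposited tables, counted after repeated rows were removed, 1161 were outer promoter peaks and 25778 were inner promoter peaks. By overlap across tables the 1161 entries came from 443 distinct loci of 438 genes. Of these loci, 129 were outer promoter peaks in all 4 tables and 51 in 1 table. The bands were chosen by annotation alone, and no measured value was used.

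Open regions were found by ATAC-seq, an assay that tags DNA reachable by the transposase Tn5, in islets from the pancreas of male mice, 3 months old. All 15 mice carried Arid1aFl/Fl, floxed alleles of a DNA-binding subunit gene of the SWI/SNF chromatin remodelling complex, together with MIP-rtTA, a doxycycline-dependent activator under the mouse insulin promoter. Animals labelled Arid1a βKO also carried TRE-Cre, so that Cre is made in beta cells when doxycycline is given, and controls lacked it. Every mouse drank doxycycline at 1 g/L for 2 weeks, per the labels. Islets were collected 6 days following partial pancreatectomy (PPx), the surgical removal of much of the pancreas, from 4 KO-labelled and 4 control mice, and before PPx from 3 KO-labelled and 4 control mice. Whole islets were used, which hold other endocrine, endothelial and immune cells in which the insulin promoter is not active. More cells of a type and more open chromatin per cell cannot be told apart in such samples.

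The start site of a gene is usually held open by general transcription factors and the polymerase, whereas the flanks further out can hold alternative starts, proximal enhancers or ordinary nucleosomes. SWI/SNF complexes slide and evict nucleosomes, and the ARID1A-containing form is known mainly for keeping enhancers open. A peak 1 to 3 kb from one annotated start may therefore be a start of another transcript, a flank of the main start or a regulatory element within the gene.

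Depth and values per library are not analysed here, because the tables give group means. Concentrations are log2 normalised reads per peak, and folds are differences between such means on the log2 scale. The single listed Arid1a peak, in exon 9, was higher under the KO label in the authors' deposited tables, at 5.49 in KO-labelled and 1.21 in control islets before PPx (FDR 0.00187) and at 4.04 and 0.40 after PPx (FDR 0.00201). The floxed exon is not named in the labels, so this peak does not check them, and the group is called KO-labelled throughout. Of 7 beta cell markers, 3 had a peak after PPx, and their 5 peaks had a median log2 fold of 1.05 for KO-labelled minus control. Of 5 alpha cell markers 3 were listed, with a median of 0.40 over 4 peaks, and of 5 endothelial markers 3 were listed, with a median of -0.02 over 6 peaks. The 1 listed delta cell marker, Sst, had a fold of 1.12, and the 2 of 4 listed leukocyte markers had a median of 0.68. Of 4 ductal and 4 stellate markers 1 each was listed, with medians of 0.26 and 0.47. None of 6 acinar and 3 Schwann cell markers had a peak in any table. The part of cell composition in the results was not tested.

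Sequences of 5 outer promoter peaks after PPx are shown because these peaks lay on the RefSeq start of the gene they were assigned to, although the deposited annotation put them outside 1 kb. The first 3 passed the threshold for KO-labelled against control and the other two did not; they were chosen after their values were seen. Each line gives the part of the RefSeq window, from 250 bases before to 50 after the start, that lies within the peak, on the strand of the gene, in build GRCm38.p6, which is mm10. Capitals mark matches, on either strand, to the GC box of SP and KLF factors (GGGCGG), the NFY box (CCAAT), the ETS motif (CCGGAAG), the CRE (TGACGTCA) or the YY1 motif (AAGATGGC).
Cpeb4, chr11:31870690-31870989, plus strand: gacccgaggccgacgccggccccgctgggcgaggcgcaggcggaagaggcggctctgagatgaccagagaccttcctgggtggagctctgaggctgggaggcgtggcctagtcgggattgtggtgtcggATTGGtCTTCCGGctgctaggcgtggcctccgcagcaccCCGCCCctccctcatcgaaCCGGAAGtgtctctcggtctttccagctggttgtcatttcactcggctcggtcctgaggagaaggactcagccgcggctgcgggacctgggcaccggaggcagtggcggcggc
Smim15, chr13:108044224-108044523, plus strand: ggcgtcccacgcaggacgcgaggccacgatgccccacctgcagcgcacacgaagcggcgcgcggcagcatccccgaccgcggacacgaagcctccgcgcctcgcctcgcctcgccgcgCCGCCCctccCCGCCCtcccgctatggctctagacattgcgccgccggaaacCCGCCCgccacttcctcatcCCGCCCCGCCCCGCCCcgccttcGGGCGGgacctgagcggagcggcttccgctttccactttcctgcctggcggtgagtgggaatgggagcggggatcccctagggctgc
Zfp995, chr17:21909877-21909996, minus strand: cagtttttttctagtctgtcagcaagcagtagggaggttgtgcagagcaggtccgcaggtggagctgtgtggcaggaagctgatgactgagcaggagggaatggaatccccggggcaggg
Slc27a1, chr8:71570344-71570643, plus strand: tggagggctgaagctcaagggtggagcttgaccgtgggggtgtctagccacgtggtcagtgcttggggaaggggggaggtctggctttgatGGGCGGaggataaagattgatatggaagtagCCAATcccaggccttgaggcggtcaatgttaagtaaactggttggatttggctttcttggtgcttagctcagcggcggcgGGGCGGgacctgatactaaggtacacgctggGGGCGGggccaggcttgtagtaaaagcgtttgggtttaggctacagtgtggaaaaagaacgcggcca
Psmc2, chr5:21786497-21786796, plus strand: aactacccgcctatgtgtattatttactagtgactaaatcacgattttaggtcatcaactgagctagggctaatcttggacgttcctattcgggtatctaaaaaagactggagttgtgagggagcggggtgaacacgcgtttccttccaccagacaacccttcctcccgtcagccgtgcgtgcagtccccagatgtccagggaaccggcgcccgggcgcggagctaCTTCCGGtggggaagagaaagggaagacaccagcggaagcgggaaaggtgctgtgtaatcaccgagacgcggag

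The start of Smim15, which encodes a small membrane protein, had a GC content of 74.3% and 7 GC boxes, some of which share a letter. The start of Cpeb4, which encodes a protein that binds the cytoplasmic polyadenylation element of mRNA, had 68.3% GC with 1 GC box, 1 NFY box and 2 ETS motifs. By contrast, the 120 bases of Zfp995, a zinc finger gene, had 57.5% GC, 2 CpG sites and no capitals. Slc27a1, a fatty acid transporter gene, had 3 GC boxes and 1 NFY box, and Psmc2, which encodes a proteasome ATPase, had 1 ETS motif. Among all 32851 full RefSeq windows, which are longer than the stretch of Zfp995 shown, 35.7% held the GC box, 37.4% the NFY box, 8.86% the ETS motif, 1.79% the CRE and 2.75% the YY1 motif. The search also covered AP-1 (TGANTCA, 7.81%), FOXA (TGTTTAC, 3.65%), the NEUROD1 E-box (CAGATGG, 5.3%), TAATTA (5.29%), the CTCF core (AGGGGGC, 10.6%), the TATA box (TATAAA, 13.6%), the RFX motif (GTTGCCA, 4.38%) and TEAD (GGAATG, 14.7%). Of these motifs, which are not marked by capitals, only TEAD matched in the sequences shown, with 1 match each in Smim15 and Zfp995. A match is a run of letters, not a bound site.

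These 5 windows were exceptions among the outer promoter peaks. Of the 400 such peaks in the comparison of genotypes after PPx, 367 were assigned to a gene matched in RefSeq. Of the matched peaks 236 had their centre inside the gene body and 131 outside. A RefSeq start window was found for the own gene of 250 peaks, 62.5% of the 400, too few for a check of sequence over the whole set. For 12 of the 250 the start lay inside the peak, for 2 within 1 kb, for 114 at over 1 to 3 kb and for 122 at over 3 kb. The peak of Fpr3, a formyl peptide receptor gene, was 60175 bases from the RefSeq start of that gene. Protein-coding genes made up 80.7% of the matched outer peaks against 91.6% of inner peaks, and lncRNA genes 9.26% against 6.5%. Predicted genes with Gm symbols took 17.0% of outer and 7.33% of inner promoter peaks. No gene for a cytosolic ribosomal protein, a mitochondrial ribosomal protein or a histone had an outer promoter peak after PPx, whereas 57, 34 and 38 inner promoter peaks belonged to these families. These were 0.745%, 0.444% and 0.497% of inner promoter peaks, and shares this small leave few peaks to count among 400.

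After PPx, 17 of 400 outer promoter peaks were gained in KO-labelled islets and none was lost, at the authors' FDR of 0.05 in the authors' deposited table. That is 4.25% of them, against 9.89% of all 13111 peaks gained and 0.0839% lost, and against 14.9% of 7650 inner promoter peaks gained. Outer promoter peaks were also weaker, with a median concentration of 3.66 against 4.11 for inner ones, and inner promoter peaks reweighted to the same concentrations were gained at 9.42%. The median log2 fold was 0.47 for outer promoter peaks, 0.72 for inner promoter peaks and 0.61 for all peaks. The peaks at 1 to 2 kb and at 2 to 3 kb had close medians, 0.49 and 0.45, with 9 of 206 and 8 of 194 gained. Relative to the median of the table, the outer promoter median was -0.14 and the inner 0.11, and 148 of 400 outer promoter peaks, 37.0%, lay above that median, against 63.7% of inner ones.

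Against 0 rather than against the table, 347 outer promoter peaks (86.8%) were higher in KO-labelled islets. At an unadjusted p under 0.05, 83 outer promoter peaks were higher, 20.8% against 33.0% of all peaks, and 3 were lower, 0.75% against 0.526%. The deposited FDR was 1 for 157 of the 400 (39.2%), against 23.0% of inner promoter peaks, and peaks with an FDR of 1 cannot pass the threshold whatever their p. The highest fold of all, at the Y RNA gene Rny3, was among them, at 3.59 in KO-labelled and 1.56 in control islets in the authors' deposited table (fold 2.03, implied SE 0.56, p = 0.000319). In no control library was a peak called at 135 outer loci (33.8%), against 25.6% of inner ones, and in no KO-labelled library at 5 outer loci. With folds centred on the median of all peaks, no outer promoter peak was gained, and Aida and Gm22862 were lost. Calls after centring were not counted over all peaks or inner promoter peaks, so these counts have no background.

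**Figure D1:**
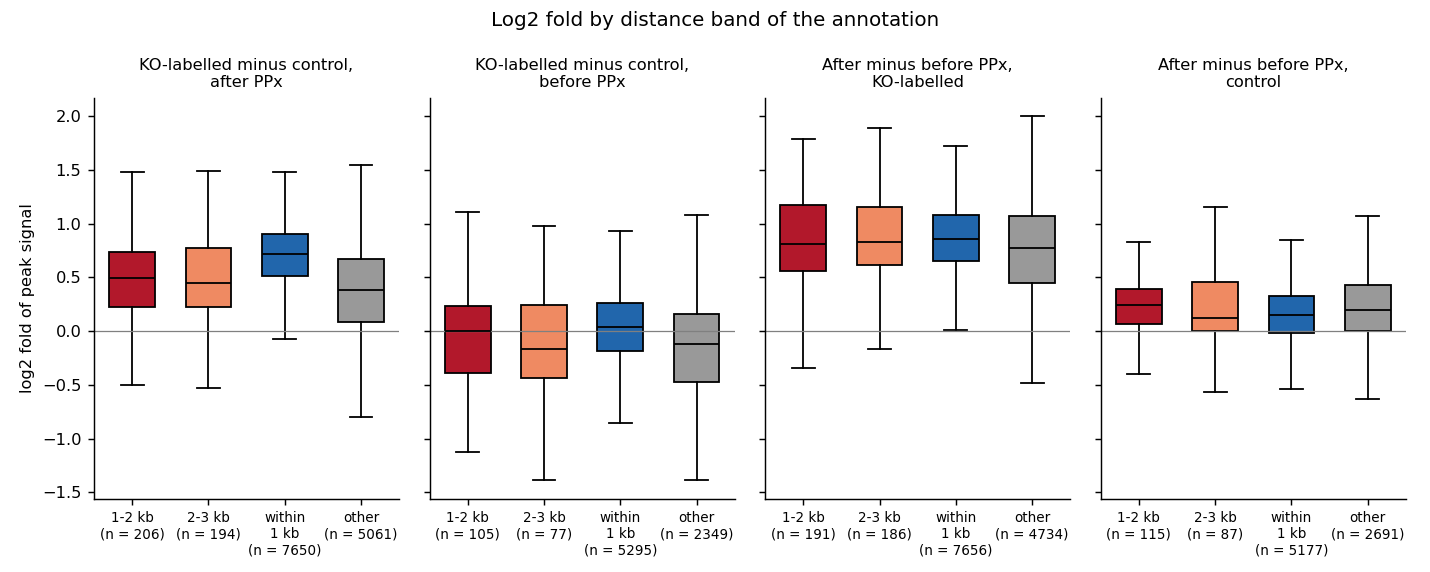
Log2 folds of peak signal in each of the 4 deposited tables by annotation band, with the number of peaks under each box; boxes span the middle 50% with the median, whiskers reach 1.5 box lengths and points beyond are not drawn. After PPx the KO-labelled minus control medians were 0.49 at 1 to 2 kb, 0.45 at 2 to 3 kb and 0.72 within 1 kb, while the bands had close medians for after minus before PPx in KO-labelled islets.

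The strongest call was at Ppm1l, which encodes a PP2C-type protein phosphatase. Its peak (chr3:69544944-69545544, inside the gene body) averaged 4.53 in KO-labelled and 2.74 in control islets in the authors' deposited table, a log2 fold of 1.79 (implied SE 0.43, FDR 0.0154). It was called in 3 of 4 KO-labelled and 0 of 4 control libraries. Among the calls, the peak of Ppm1l had both the largest fold and the lowest control level.

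Rnase4, which encodes a secreted ribonuclease, averaged 5.86 in KO-labelled and 4.57 in control islets in the authors' deposited table, a log2 fold of 1.29 (implied SE 0.36, FDR 0.0265). Sec14l2, a lipid-binding protein gene, had 4.42 and 3.04 in the authors' deposited table, with fold 1.39 (implied SE 0.41, FDR 0.0268), and its peak was called in 4 of 4 KO-labelled libraries and in no control library. For Hadh, the mitochondrial 3-hydroxyacyl-CoA dehydrogenase of fatty acid oxidation, the authors' deposited table gave 5.68 in KO-labelled and 4.67 in control islets, a log2 fold of 1.01 (implied SE 0.36, FDR 0.0449). Fabp5, a fatty acid carrier gene, had 4.21 in KO-labelled and 2.99 in control islets in the authors' deposited table (log2 fold 1.22, implied SE 0.39, FDR 0.0351).

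Nr4a3, an orphan nuclear receptor gene induced early by many stimuli, had 5.46 in KO-labelled and 4.55 in control islets in the authors' deposited table (log2 fold 0.91, implied SE 0.31, FDR 0.0392). Prpf4b, which encodes a kinase of the splicing machinery, had 5.08 and 3.99 in the authors' deposited table (log2 fold 1.09, implied SE 0.34, FDR 0.0320), and its locus was annotated within 1 kb in the other 3 tables. The peaks on the starts of Smim15, Cpeb4 and Zfp995 had log2 folds of 1.15, 1.12 and 1.19 in the authors' deposited table, with FDRs of 0.0265, 0.0265 and 0.0279. Slc27a1 and Psmc2, also on their own starts, had folds of 0.58 (FDR 0.143) and 0.91 (FDR 0.0694) in the authors' deposited table.

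Other calls were Tchh, encoding a hair follicle protein, Mos, encoding a kinase of oocyte meiosis, Fpr3, Prr14, whose product tethers heterochromatin to the nuclear lamina, Mir5112 and Gm281. Their log2 folds in the authors' deposited table were 1.26, 1.21, 1.05, 1.03, 1.42 and 1.10. Over the 17 calls, folds were 0.91 to 1.79, implied SEs 0.31 to 0.43, and all 17 folds were above the median of all peaks. In KO-labelled islets 13 were called in every library, against 4 called in every control library and 6 in none.

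**Figure D2:**
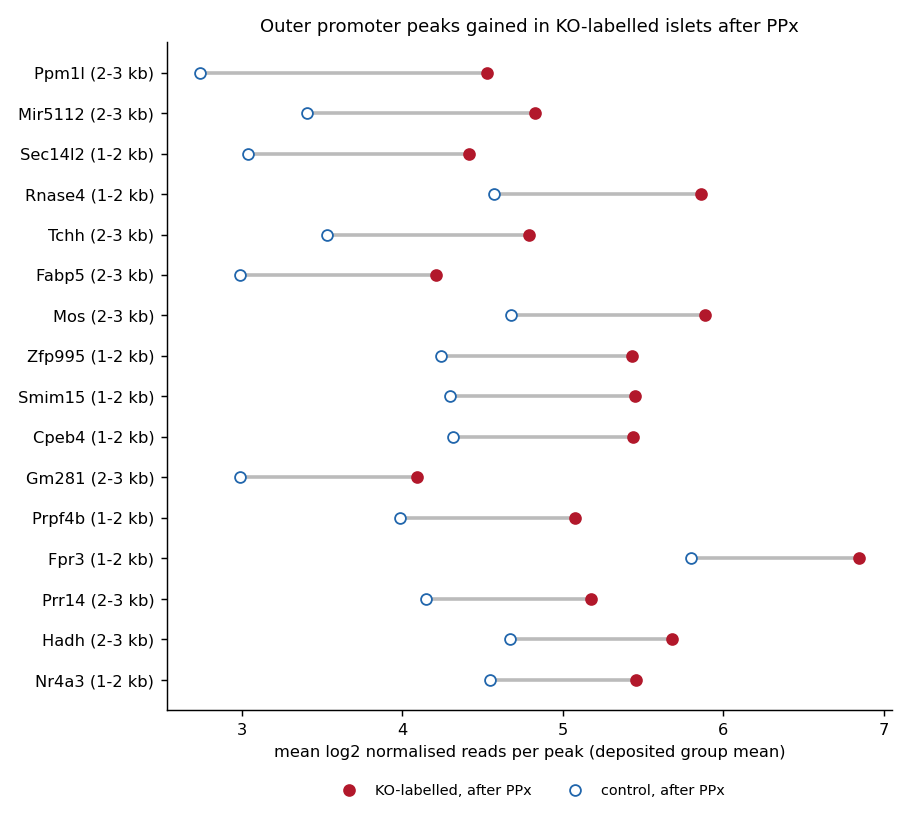
Mean log2 normalised reads per peak of 16 of the 17 outer promoter peaks gained after PPx, with KO-labelled islets as filled red points and control islets as open blue points, sorted by log2 fold. The means are the authors' deposited group means over 4 libraries each, without error bars, and every KO-labelled point shown lies above its control point.

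Aida, named for its interaction with the scaffold protein axin, had the outer promoter peak of highest concentration and a fold below 0 in both states. It averaged 7.17 in KO-labelled and 7.83 in control islets after PPx in the authors' deposited table, with log2 fold -0.66 (implied SE 0.34, FDR 0.115), and 7.29 and 7.82 before PPx (fold -0.53, implied SE 0.45, FDR 1). Neither difference passed. The next in concentration were Clec11a, a secreted bone growth factor gene, at 7.13 and 6.52 (FDR 0.149), Jun, an AP-1 transcription factor gene, at 6.94 and 6.61 (FDR 0.459), the pseudogene Pisd-ps1 at 7.00 and 6.40 (FDR 0.122) and Fpr3 at 6.85 and 5.80 (FDR 0.0325), each in KO-labelled and control islets of the authors' deposited table. The lowest fold was that of Il1f6, a cytokine gene, at 2.14 in KO-labelled and 3.46 in control islets in the authors' deposited table (fold -1.32, implied SE 0.62, FDR 1).

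Before PPx, none of 182 outer promoter peaks was called in either direction in the authors' deposited table, where 0.0128% of 7826 peaks were gained and 0.0% were lost. The smallest FDR among outer promoter peaks was 1. At an unadjusted p under 0.05, 2 outer promoter peaks were higher in KO-labelled islets, 1.1% against 0.843% of all peaks, and 9 were lower, 4.95% against 2.3%. The median log2 fold was -0.07, against 0.04 for inner promoter peaks and 0.00 for all peaks. Ddc, which encodes aromatic L-amino acid decarboxylase, had 5.10 in KO-labelled and 4.24 in control islets (fold 0.86, implied SE 0.40) in the authors' deposited table. On the low side, Elovl5, a fatty acid elongase gene, had 2.33 in KO-labelled and 3.84 in control islets in the authors' deposited table (fold -1.50, implied SE 0.54), and Sepsecs, which encodes a selenocysteine tRNA synthase, had 3.07 and 4.46 (fold -1.39, implied SE 0.44). Reln, which encodes the secreted glycoprotein reelin, had a fold of -1.15 in the authors' deposited table. Each of these 4 peaks had an FDR of 1, as did Ppm1l and Rny3, whose folds in the authors' deposited table were 0.95 (implied SE 0.52) and 0.82 (implied SE 0.68).

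The comparisons of genotype before and after PPx share no library, and 155 outer promoter loci were listed as such in both. Of these, 68 were above 0 after PPx and below 0 before, 62 were above 0 in both, 17 below 0 in both and 5 below 0 after PPx and above 0 before. Medians over these loci were 0.56 after PPx and -0.08 before, and 135 of 155 folds were higher after PPx. The medians of all peaks in the same comparisons were 0.61 and 0.00, and the same count over all peaks was not made. Across loci the folds had a Spearman rho of 0.33, a description over 155 loci that share libraries within each table. Of the 17 loci gained for genotype after PPx, 13 were listed under any annotation for genotype before PPx, 8 above 0 and 5 below, with a median fold of 0.08. Among the 13, Sec14l2 (fold 0.08) and Prpf4b (fold 0.35) were annotated within 1 kb before PPx. Ppm1l had folds of 1.79 after and 0.95 before PPx, and Cpeb4 1.12 after and -0.60 before, in the authors' deposited tables. The difference of these folds between states was not tested.

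In control islets, none of 202 outer promoter peaks was called for after against before PPx, and 0.0% of 8070 peaks were called in either direction in the authors' deposited table. The smallest FDR among outer promoter peaks was 0.999. At an unadjusted p under 0.05, 11 outer promoter peaks were higher after PPx, 5.45% against 2.43% of all peaks, and none was lower, against 0.0991%. The median log2 fold was 0.18, against 0.15 for inner promoter peaks and 0.16 for all peaks. Kat2b, a histone acetyltransferase gene, had 4.12 after and 2.96 before PPx in the authors' deposited table (fold 1.17, implied SE 0.45, FDR 0.999). Vav1, which encodes a guanine nucleotide exchange factor of blood cells, had 3.56 after and 2.41 before PPx (fold 1.15, implied SE 0.50), and Pcmtd1 had 3.89 and 2.82 (fold 1.06, implied SE 0.43), both at an FDR of 0.999 in the authors' deposited table. Reln had 2.86 after and 3.74 before PPx in the authors' deposited table (fold -0.88, implied SE 0.45, FDR 0.999), and Nr4a3 had 4.39 and 4.91 (fold -0.52, implied SE 0.29, FDR 0.999). Elovl5 had a fold of -0.68 in the authors' deposited table, also at an FDR of 0.999.

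In KO-labelled islets, 21 of 377 outer promoter peaks were gained after PPx relative to before and none was lost, in the authors' deposited table. That is 5.57%, against 7.45% of all 12767 peaks gained and 0.0% lost, 9.94% of inner promoter peaks gained and 7.07% of inner promoter peaks reweighted to the concentrations of the outer ones. The median log2 fold was 0.82 for outer and 0.86 for inner promoter peaks and 0.83 for all peaks, so that relative to the table the outer median was -0.01. Above 0 were 364 of 377 outer promoter peaks (96.6%), and 131 (34.7%) were higher at an unadjusted p under 0.05, against 39.4% of all peaks, and none was lower, against 0.0235%. With folds centred on the median of all peaks none was gained, and calls after centring were not counted over all peaks.

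Rims2, a scaffold of the exocytosis site, had 4.96 after and 3.63 before PPx in the authors' deposited table, with log2 fold 1.33 (implied SE 0.43, FDR 0.0406). Rapgef4, the gene of the cAMP sensor EPAC2 that acts in insulin secretion, had 4.01 after and 2.32 before PPx in the authors' deposited table (fold 1.69, implied SE 0.55, FDR 0.0410). Arfip1, which encodes arfaptin-1 of the trans-Golgi network, had 4.02 after and 2.23 before PPx in the authors' deposited table (fold 1.79, implied SE 0.54, FDR 0.0349). These 3 peaks, like all 21 gained for PPx, were called in more libraries after PPx, where there were 4, than before, where there were 3.

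Slc7a2, a cationic amino acid transporter gene and one of the alpha cell markers used here, had 4.20 after and 2.57 before PPx in the authors' deposited table (fold 1.63, implied SE 0.53, FDR 0.0410). Sepsecs had 4.82 after and 2.98 before PPx in the authors' deposited table (fold 1.84, implied SE 0.46, FDR 0.0230). Calls there were made in 4 of 4 libraries after PPx and 1 of 3 before. Fnip2, which encodes a folliculin partner, had 4.91 and 3.38 after and before PPx (fold 1.53, implied SE 0.43, FDR 0.0282), and Mysm1, a histone H2A deubiquitinase gene, had 5.08 and 3.76 (fold 1.32, implied SE 0.40, FDR 0.0353), both in the authors' deposited table. Ccnh, which encodes the cyclin H subunit of the CDK-activating kinase, had 4.03 after and 2.45 before PPx in the authors' deposited table (fold 1.58, implied SE 0.50, FDR 0.0404), and the lysosomal sulfatase gene Ids had 5.18 and 3.89 (fold 1.29, implied SE 0.41, FDR 0.0394).

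Cpeb4, Rnase4, Zfp995 and Prr14 passed in both tables that use the 4 KO-labelled libraries taken after PPx. Their log2 folds were 1.47, 1.47, 1.27 and 1.18 for PPx and 1.12, 1.29, 1.19 and 1.03 for genotype in the authors' deposited tables, which share those libraries. The remaining calls for PPx included Pcmtd1, Ttc17, Chic1, Zp2, encoding a zona pellucida protein, and Tuft1, encoding an enamel protein, with log2 folds of 1.54, 1.33, 1.55, 1.36 and 1.21 in the authors' deposited table. Folds of the 21 calls ran from 1.18 to 2.12, with implied SEs of 0.37 to 0.55, and 5 of them were called in no library before PPx.

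**Figure D3:**
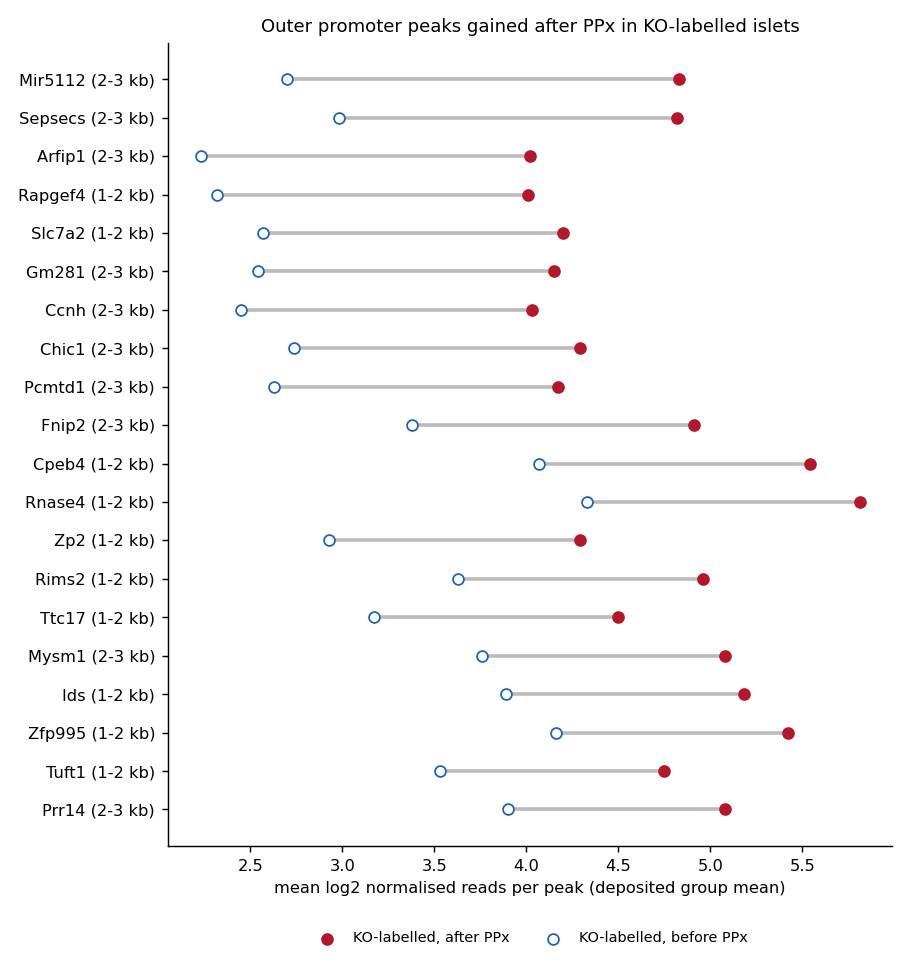
Mean log2 normalised reads per peak of 20 of the 21 outer promoter peaks gained after PPx in KO-labelled islets, with islets after PPx as filled red points and islets before PPx as open blue points, sorted by log2 fold. The means are the authors' deposited group means over 4 and 3 libraries, without error bars, and every point shown after PPx lies above its point before PPx.

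The response to PPx in KO-labelled and control islets was measured in tables without a shared library, and 171 outer promoter loci were in both. Of these, 136 were above 0 in both, 31 above 0 in KO-labelled and below 0 in control islets, 2 the reverse and 2 below 0 in both. Medians were 0.80 in KO-labelled and 0.19 in control islets, and 152 of 171 folds were higher in KO-labelled islets, with a Spearman rho of 0.03 over the 171 loci as a description. Over all peaks the medians were 0.83 and 0.16, and the same count over all peaks was not made. For Cpeb4 the log2 folds were 1.47 in KO-labelled and -0.25 in control islets, and for Sepsecs 1.84 and 0.04, in the authors' deposited tables. The difference between genotypes was not tested.

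**Figure D4:**
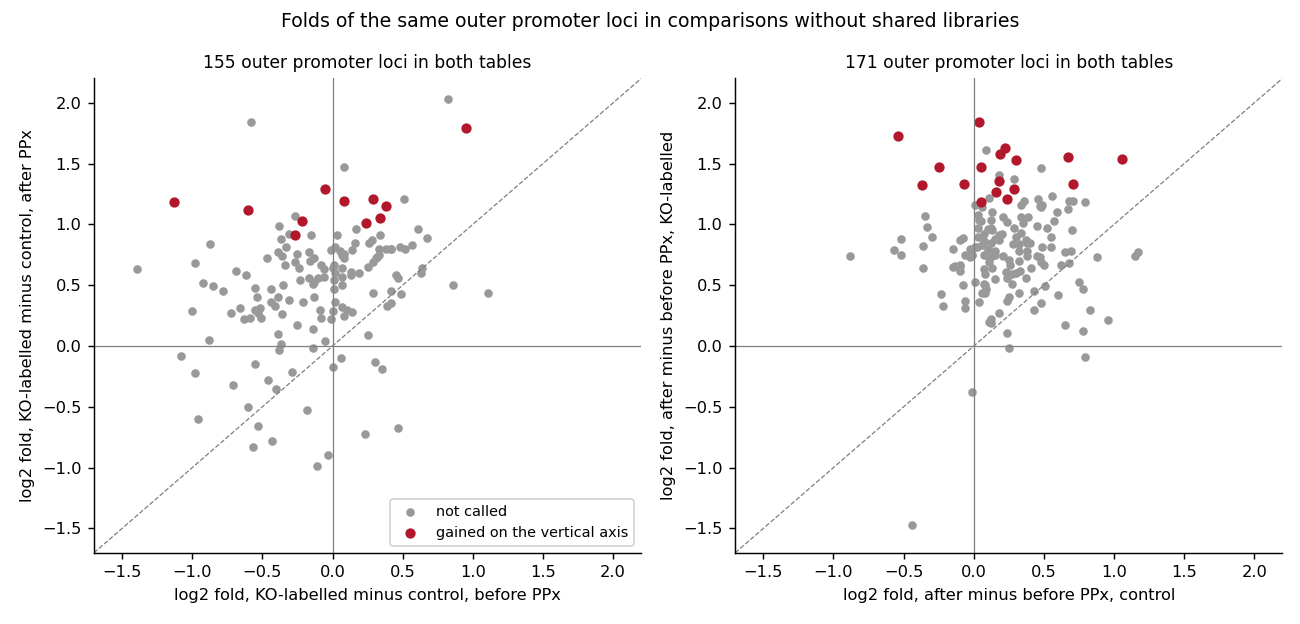
Log2 folds of outer promoter loci in 2 pairs of comparisons that share no library, with each point a locus, red where the comparison on the vertical axis was called gained, and the dashed line marking equal folds. On the left, 135 of 155 loci lie above the line for genotype after against before PPx, and on the right 152 of 171 for PPx in KO-labelled against control islets. Medians of all peaks differed too, at 0.61 and 0.00 on the left and 0.83 and 0.16 on the right.

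A gene's outer promoter peak can be set beside its own inner promoter peak in the same table, that of highest concentration where the gene had several. After PPx, 120 of 400 outer promoter peaks had such a partner, and the fold for KO-labelled minus control was below that of the partner in 83 pairs, above it in 35 and equal in 2, with a median difference of -0.23. Of these pairs 3 outer and 20 inner peaks were gained, both in 1 pair, that of Ppm1l. In the whole comparison 9.89% of all peaks, 4.25% of outer and 14.9% of inner promoter peaks were gained. The outer peak had the lower concentration in 97 of the 120 pairs, with a median difference of -0.88, and the pairs were not matched for concentration. Hacd1, a fatty acid dehydratase gene, had an outer fold of 0.17 (FDR 0.729) and in the authors' deposited table its inner fold was 1.64 (FDR 0.0212). The largest difference in the other direction was at Pam, which encodes the enzyme that amidates peptide hormones, with an outer fold of 1.84 (implied SE 0.66, FDR 1) and in the authors' deposited table an inner fold of 0.63 (FDR 0.140). Smim13, which encodes a small membrane protein, had an outer fold of -0.78 (FDR 1) and in the authors' deposited table an inner fold of 0.71 (FDR 0.0928).

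For PPx in KO-labelled islets the order was different: among 106 pairs, the outer fold was above its partner in 60 and below it in 43, with a median difference of 0.15. Of these 106 pairs 6 outer and 5 inner peaks were gained, and both in 0 pairs. In the whole comparison 7.45% of all peaks, 5.57% of outer and 9.94% of inner promoter peaks were gained. Car8, which encodes a carbonic anhydrase-related protein, had in the authors' deposited table an outer fold of 1.79 (FDR 1) and an inner fold of 0.30 (FDR 1). For genotype before PPx the outer fold was above its partner in 13 of 40 pairs, with a median difference of -0.36, and for PPx in controls in 25 of 46, with a median difference of 0.04. These pairs share a gene and a table, and no test was made of the difference. The outer peak had the lower concentration in 85 of the 106 pairs, 29 of the 40 and 32 of the 46.

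Outer promoter peaks were also read for 515 genes of 25 lists chosen for islet biology. For KO-labelled against control after PPx, 17 of these genes had one, where 397 of all 9846 genes in the table did. The 515 genes include some without any listed peak and the 9846 do not, so these shares have unlike bases. None of the 17 peaks was gained, against 4.25% of outer promoter peaks and 9.89% of all peaks, with a median log2 fold of 0.46 against 0.47 for all outer promoter peaks. No gene of the beta cell identity list had an outer promoter peak in any table. Among AP-1 factors, the peaks of Fos, Junb and Jun had log2 folds of 0.79 (FDR 0.0824), 0.70 (FDR 0.135) and 0.33 (FDR 0.459) in the authors' deposited table. Sos1, which encodes an exchange factor that activates Ras, had 5.35 in KO-labelled and 4.56 in control islets in the authors' deposited table (fold 0.79, FDR 0.0772). Gcg, the glucagon gene and an alpha cell marker, had 3.70 in KO-labelled and 3.80 in control islets in the authors' deposited table (fold -0.10, FDR 0.834). For PPx in KO-labelled islets, 18 peaks of listed genes included 2 gained, those of Rims2 and Slc7a2 already described, and none lost, beside 5.57% of outer promoter peaks and 7.45% of all peaks gained.

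Peaks at the edges of the bands were sorted differently in different tables. At the 1 kb edge 23 loci were inner promoter peaks in one table and outer in another, at the 3 kb edge 6, and 8 moved between the 1 to 2 kb and 2 to 3 kb bands. Jun was annotated at 1 to 2 kb in the tables with KO-labelled libraries taken after PPx, with log2 folds of 0.33 for genotype and 0.59 for PPx, and within 1 kb in the other two, in the authors' deposited tables. At the outer edge, Cdk14, which encodes a cyclin-dependent kinase of the Wnt pathway, had log2 folds of 0.87 and 1.31 in the same order, at FDRs of 0.0818 and 0.0606, in the authors' deposited tables. Of all 443 loci, 197 were listed only in tables with KO-labelled libraries taken after PPx, and 13 in neither of these. The tables with those libraries were also longer as a whole, with 13111 and 12767 peaks. For genotype before PPx 7826 peaks were listed, and for PPx in controls 8070. The same count over all peaks was not made, so the 197 cannot be read as a trait of outer promoter loci.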

How the data were processed

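ATAC-seq libraries of 15 male mice were made from 40000 islet cells each and read as single 75-base ends, per the labels' protocols. The processing tools cutadapt, BWA, MACS, DiffBind and ChIPseeker and the mm10 build are named in the submitters' processing notes, and versions, settings and the scaling between libraries are not given in the sources used here. Deposited by the authors were 4 tables of peaks of 601 bases with log2 group means, a log2 fold, a p-value and an FDR per peak. The deposited p-value was read as measuring spread between libraries, and its test is not named in the file headers. Depth per library is unknown. The number of libraries limits the precision.

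From these, repeated rows were removed (1197, 5281, 1337 and 4588), and folds were signed as KO-labelled minus control or as after minus before. Calls (gained, lost) use an FDR of at most 0.05 in the deposited tables. The implied SE of a fold is the fold's size over the normal quantile that gives the deposited p-value, two-sided. Where the fold was under 0.1 or the p at least 0.95, the median of 1 of 40 concentration bins was used. Peaks of different tables were joined into a locus where they overlapped by at least 1 base, directly or through a peak of another table. Promoter windows came from RefSeq, build GRCm38.p6. Levels were compared within a table only.

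The named genes are, per comparison, the 10 gained peaks with the smallest FDR, or without calls the highest and lowest 4 folds among the 50 smallest p. Further named were called peaks of listed genes, the 5 highest concentrations, and the 3 largest differences each way between an outer and its inner promoter peak. A few of the peaks chosen by this rule are not reported here. Others were named after their values were seen, and the 5 peaks nearest each band edge could not be chosen because the tables hold no distances; loci whose annotation differed were used. Members, lists and rules were chosen with earlier results of these data known. Calculations used python 3.11.15, pandas 2.3.3, numpy 2.4.6, scipy 1.17.1 and matplotlib 3.10.9. The adjustment of p-values and the implied SE were run on simulated folds without a shift of the whole table. The centring was not tested on simulated data.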

Additional observations from a re-analysis of the deposited data

How the results depend on the processing

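Of 48 alternatives for a count of called peaks, 43 left it within 1.5 times, many of them in the comparisons without calls. Counts moved beyond that limit under 2 settings. At an FDR of 0.01, the 17 peaks gained for KO-labelled against control after PPx and the 21 gained after PPx in KO-labelled islets both became 0. With folds centred on the median of all peaks, both counts were also 0, and 2 peaks were lost for KO-labelled against control after PPx. Calls after centring were counted for outer promoter peaks only. The centring subtracts the shift common to the whole table, and whether that shift is chromatin or scaling was not tested. The gap between outer and inner promoter medians ran from -0.26 to -0.17 for genotype after PPx, from -0.14 to -0.09 before PPx, from -0.08 to 0.00 for PPx in KO-labelled islets and from -0.01 to 0.05 in controls. Its sign is therefore not settled for PPx: in controls the gap was 0.03 as reported and -0.01 for peaks called in at least 3 libraries or of higher concentration, and in KO-labelled islets it was -0.04 as reported and 0.00 without Gm, Rik, Mir and Snor genes. The outer promoter median for genotype before PPx was -0.07 as reported and 0.00 for peaks of higher concentration. The alternative without Gm, Rik, Mir and Snor genes was chosen after seeing the data. No paired analysis was possible because the tables hold group means only, and for the same reason no library could be left out in turn. Bands taken from the distance to the start site were not run, since the tables hold no such distance. Peaks with a deposited FDR of 1, which cannot pass, were 39.2% of outer promoter peaks for genotype after PPx and 26.8% for PPx in KO-labelled islets.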

Other observations

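Outer promoter peaks of genes with Gm, Rik, Mir or Snor symbols were 24.8% of those listed after PPx for KO-labelled against control, against 13.2% of inner promoter peaks. Their median log2 fold was 0.48, against 0.46 for the other outer promoter peaks, and 2 of 99 were gained, Mir5112 and Gm281, beside 4.25% of outer promoter peaks and 9.89% of all peaks; of inner promoter peaks with such symbols 139 of 1011 were gained. In the comparison of PPx in KO-labelled islets, the median over the 97 such peaks was 0.69 on the log2 scale, against 0.86 for the other outer promoter peaks.

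By position, outer promoter peaks with their centre outside the RefSeq body of their gene were gained in 10 of 131 cases for KO-labelled against control after PPx. Those inside were gained in 7 of 236. The median log2 folds were 0.52 outside and 0.44 inside. Of all outer promoter peaks 4.25% were gained, and of all peaks 9.89%. For PPx in KO-labelled islets the order was the other way, with 15 of 216 inside and 6 of 127 outside gained, and medians of 0.83 and 0.81. Of all outer promoter peaks 5.57% were gained there, and of all peaks 7.45%. No test was made of position. After PPx, the 26 outer promoter peaks that overlapped any RefSeq start window had a median fold of 0.67 on the log2 scale for KO-labelled minus control, against 0.45 for the rest, and a median concentration of 4.33 against 3.63.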
